A study of Rattus norvegicus with 24 samples.

Results

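The highest estradiol dose was set against the next dose down in female rat mammary glands, to describe what a 10-fold higher dose added. Of the 24 arrays in the series, 6 were compared: the 3 female arrays at 10 µg/kg/day (replicates 10, 11 and 12) and the 3 female arrays at 1 µg/kg/day (replicates 7, 8 and 9), chosen by their sex and dose labels. All animals were Sprague-Dawley rats, an outbred laboratory strain. They carried subcutaneous osmotic pumps with 17β-estradiol between weaning on postnatal day 21 and collection of the abdominal glands on postnatal day 33, so both groups received the hormone. That route is the one in the study's design text, while the sample labels give the dose under a tag for diet. RNA of whole glands was hybridised to Affymetrix arrays, and 31042 probe sets were tested. The labels do not tie arrays to animals, so the p-values reflect the scatter among arrays and may include technical scatter.

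Each deposited value is a signed log value, taken here as log2, centred for each probe set within a sex. Values therefore show differences between doses in females, not absolute levels, and the tissue and sex labels could not be checked against the levels of defining markers. Standard errors (SE) come from a limma fit of all 24 arrays. A probe set is said to have risen or fallen where its p-value, adjusted over all probe sets by Benjamini-Hochberg, was under 0.05.

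Estradiol acts mainly through the estrogen receptor alpha, a ligand-activated transcription factor that in the mammary gland is found in luminal epithelial cells and stroma. In the pubertal gland it drives elongation of the ducts, partly through amphiregulin made by the receptor-bearing cells, and it induces the progesterone receptor. Estradiol also raises prolactin secretion by the rodent pituitary, and prolactin acts on the alveolar epithelium through the kinase Jak2 and the transcription factor Stat5. The ducts lie in a pad of white fat, so a whole-gland extract holds RNA of epithelium, adipocytes, vessels, nerves and immune cells. In such extracts a change in the number of cells of a type and a change in RNA per cell cannot be told apart.

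At 10 against 1 µg/kg/day, 57 probe sets rose and 26 fell in limma (0.184% and 0.0838% of the probe sets tested, 0.267% together). The 57 stand for 40 genes where the annotation gave a single gene (41 probe sets), and the 26 for 11 genes (12 probe sets). At least 2-fold differences were seen in 28 of the rises and 11 of the falls. The groups did not overlap in any of the 83, as was so for 9.15% (higher) and 5.42% (lower) of all probe sets, and 3136 probe sets (10.1%) had an unadjusted p under 0.05. The calls depended on the spread pooled over all groups. With the 6 arrays fitted alone 1 probe set rose and 0 fell, and with the 12 female arrays 2 rose and 1 fell. All 83 kept their direction in both fits, as the construction of those fits requires, since they change the spread and not the group means.

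The 6 arrays were not alike in their content of other tissues. Averaged over 19 hepatocyte markers, the values were -0.70, -0.57 and -0.67 in the arrays at 10 and 0.93, -0.42 and 0.20 in the arrays at 1, with replicate 7 highest. T cell markers were at -1.51, 0.75 and 0.02 at 10 and at 0.00, 0.13 and 0.16 at 1, and B cell markers were low on the same array at 10 (-1.67 in replicate 10). Skeletal muscle markers were at 1.10, -1.04 and 0.82 at 10 and at -1.73, -0.24 and 1.82 at 1. Keratinocyte and hair follicle markers were at 0.29, -0.23 and -0.20 at 10 and at 1.41, -0.45 and -0.22 at 1, again with replicate 7 highest. Replicate 10 was the most extreme of the 3 arrays at 10 for 32 of the 57 rises and 19 of the 26 falls. Without it 19 rose and 3 fell, without replicate 11 20 and 7, and without replicate 12 103 and 50. Without replicate 7 at 1, 24 rose and 11 fell, without replicate 8, 8 and 1, and without replicate 9, 42 and 76. Without the 5 arrays of the series whose hepatocyte mean was over 0.5, replicate 7 among them, 9 rose and 13 fell. The beta-actin 3′ minus 5′ difference, a measure of RNA integrity, was -0.05, 0.01 and -0.05 at 10 and -0.10, -0.01 and -0.11 at 1.

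The call that held best was Zbtb40, a protein with zinc fingers and a BTB domain. Its values were 1.56, 1.78 and 1.70 at 10 against -0.25, -0.27 and -0.30 at 1. The 3 arrays of each dose lay within a narrow band and the bands were far apart. The difference was 1.95 ± 0.19 (SE, n = 3 arrays per group, 3.86-fold, 95% confidence interval 2.94 to 5.08, adjusted p = 9.38e-05 in limma). It was the single gene that stayed past the threshold in all 11 other settings and whichever of the 6 arrays was left out, with differences between 1.90 and 2.01. A second probe set for Zbtb40 gave -0.03 ± 0.12 (adjusted p = 0.983), so the rise was seen by 1 of the gene's 2 probe sets. In the rat reference (GRCr8) Zbtb40 lies next to Wnt4, a secreted signal that acts downstream of progesterone in the gland. Wnt4, looked up after the value of Zbtb40 was seen, gave 0.22 ± 0.22 (adjusted p = 0.845). Epha8, the measured neighbour on the other side, gave -0.05 ± 0.15 (adjusted p = 0.97 in limma).

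The largest rise of all was that of Ankrd34b, an ankyrin repeat protein. Its values were 2.99, 1.75 and 1.39 at 10 against -0.01, 0.04 and 0.03 at 1 (2.02 ± 0.29, adjusted p = 0.00551). Its arrays at 10 were spread, with replicate 10 highest, and its 3 arrays at 1 were nearly equal. Extl1, a glycosyltransferase of heparan sulfate synthesis, had 2 probe sets and both rose. They gave 1.17 ± 0.14 and 1.04 ± 0.15 (adjusted p = 0.00131 and 0.00665), the first with 1.13, 1.31 and 0.95 at 10 against -0.12, -0.05 and 0.04 at 1. Asic2, a proton-gated sodium channel, rose by 1.27 ± 0.18 (adjusted p = 0.0047), and its other probe set had the same sign. The first Extl1 probe set and those of Ankrd34b, Asic2, Zbtb40, Folr1 and Sowahb were the 6 with a gene name that stayed past the threshold whichever array was left out. Beside them 2 unnamed probe sets did so, 1 with a rise of 1.81 and 1 with a difference of -1.39.

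The remaining large rises each lost the call without 1 or more of the 6 arrays. Orm1, which encodes the acute-phase plasma protein alpha-1-acid glycoprotein, was at 2.37, 1.79 and 0.89 at 10 against 0.01, -0.20 and -0.39 at 1 (1.87 ± 0.37, adjusted p = 0.0426). Its call ended when any of replicates 7, 8, 9, 10 or 11 was left out, with differences between 1.53 and 2.27. Phlda1, a pleckstrin homology-like protein, rose by 1.32 and had 1.74 in replicate 10 against 0.40 and 0.75 in the other 2 arrays at 10. Rises between 1.22 and 1.36 were seen for Clca4l of the calcium-activated chloride channel regulators, Bex1, Cxadr, an adhesion protein of tight junctions, and Msln, the surface protein mesothelin. Fam20c, the Golgi kinase that phosphorylates caseins and other secreted proteins, rose by 1.09 ± 0.17 (adjusted p = 0.00938). It had 1.34, 0.59 and 0.68 at 10 against -0.20, -0.44 and -0.01 at 1, and it lost the call without replicate 8 alone of the 6 arrays.

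**Figure D1:**
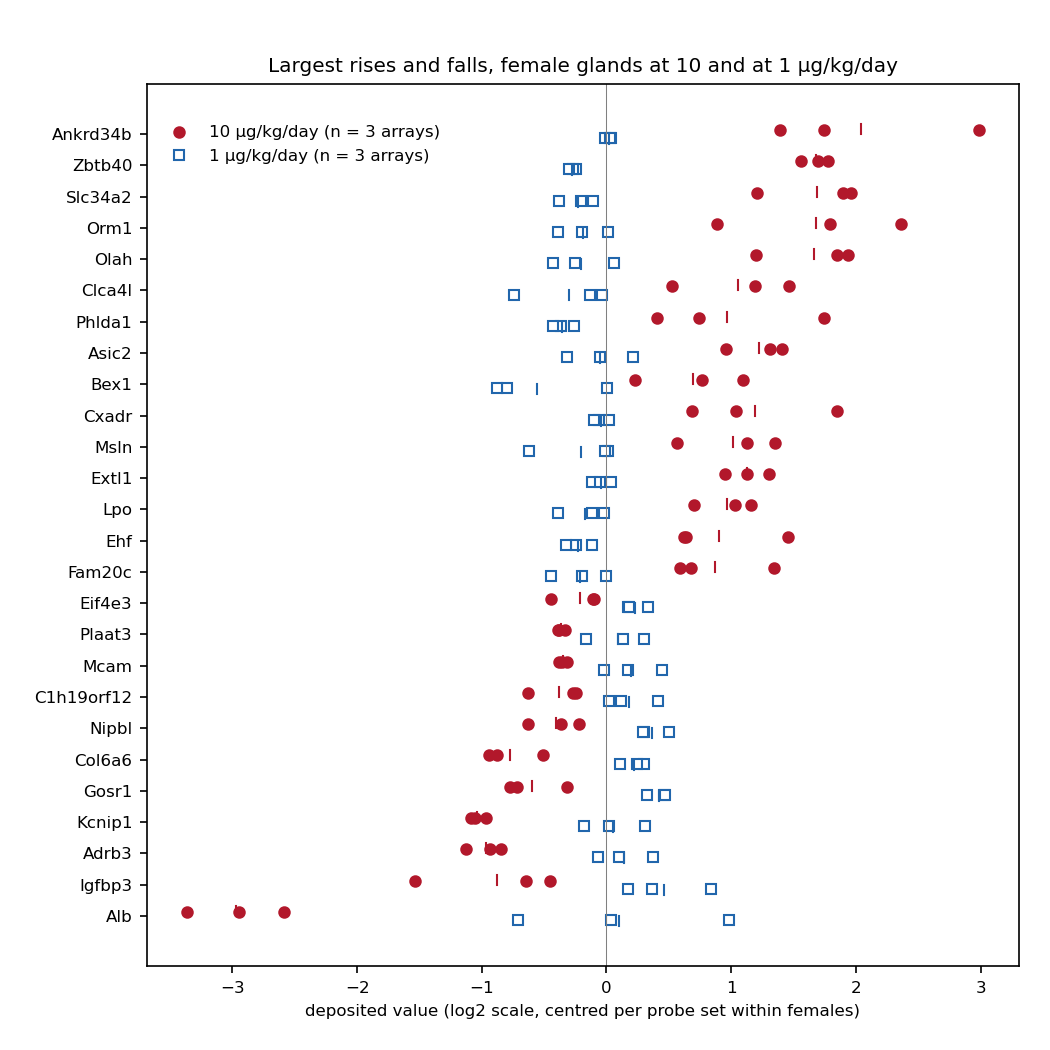
Deposited log2 values on the x axis for the 15 genes with the largest rises and the 11 that fell, 1 gene per row, with filled circles for the 3 arrays at 10 µg/kg/day, open squares for the 3 at 1 µg/kg/day and short bars for the group means. Groups that did not overlap were a condition for a gene to be shown. Zbtb40 and Extl1 had close replicates, while Ankrd34b, Orm1 and Phlda1 were spread at 10.

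Among 22 measured genes of milk protein and secretion, 4 rose, 0 fell and 18 did not pass the threshold. The list's median difference was 0.77, beside 0.01 over 14217 genes with 1 probe set each, of which 0.246% rose. At an unadjusted p under 0.05, 12 of the 22 were higher, beside 6.57% of all genes. Slc34a2, the phosphate transporter of the apical membrane of secretory cells, was at 1.97, 1.90 and 1.21 at 10 against -0.11, -0.38 and -0.20 at 1 (1.92 ± 0.40, adjusted p = 0.048). Olah, the thioesterase that releases medium-chain fatty acids for milk fat, was at 1.94, 1.85 and 1.20 at 10 against 0.06, -0.25 and -0.43 at 1 (1.87 ± 0.38, adjusted p = 0.0462). Both had every array at 10 more than 1 log2 unit above every array at 1, with replicate 12 the lowest at 10. Lpo, the antibacterial milk enzyme lactoperoxidase, rose by 1.14 ± 0.19 (adjusted p = 0.0189). Folr1, a folate receptor also shed into milk, was at 0.61, 0.61 and 0.45 at 10 against 0.00, -0.02 and 0.00 at 1 and rose by 0.56 ± 0.08 (adjusted p = 0.0037). Folr1 kept its call with any array left out. Slc34a2 and Olah each lost it without replicates 7, 8, 9, 10 or 11 (differences of 1.78 to 2.16 and 1.73 to 2.10), and Lpo lost it without replicates 8, 10 or 11 (1.03 to 1.27).

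The major milk proteins had large differences and large errors. Wap, whey acidic protein, was at 3.17, 2.82 and 2.23 at 10 against -0.26, 1.16 and 0.06 at 1. The groups did not overlap, but the difference of 2.42 ± 0.67 (5.36-fold, 95% confidence interval 2.04 to 14.1) did not pass (adjusted p = 0.138). Csn2, beta-casein, was at 2.16, 2.03 and 1.89 at 10 against 0.74, -0.36 and -0.21 at 1 (1.97 ± 0.77, adjusted p = 0.349). Csn3, kappa-casein, which keeps casein micelles in suspension, gave 1.36 ± 0.41 (adjusted p = 0.176). For both caseins the 3 arrays at 10 lay close together and above all 3 at 1. The SE pools the spread of all 8 groups, and Csn2 ranged between -4.06 and 0.21 in the 3 arrays at 0.1. Csn1s1, alpha-S1-casein, gave 0.70 ± 0.20 (adjusted p = 0.164), and Lalba, the alpha-lactalbumin subunit of lactose synthase, 0.94 ± 0.27 (adjusted p = 0.161). The lowest member was Cidea, a lipid droplet protein shared with brown fat, at -0.39 ± 0.20 (adjusted p = 0.549).

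Luminal epithelial markers centred on a difference of 0.52 (median), with 1 of 26 risen and 0 fallen (0.246% and 0.0563% of all genes). Of the 26, 23 were above 0, beside 51.4% of all genes. Ehf, an ETS transcription factor of epithelial cells, was at 1.46, 0.62 and 0.64 at 10 against -0.25, -0.32 and -0.12 at 1. It rose by 1.14 ± 0.22 (adjusted p = 0.0402), and the call ended without replicates 7, 8, 10 or 11 (0.86 to 1.28). Elf5, the ETS factor of alveolar progenitors, gave 1.45 ± 0.46, and Muc1, an apical mucin, 1.44 ± 0.33, and neither passed (adjusted p = 0.213 and 0.0764). Keratins 8, 18 and 19 of luminal cells gave 0.50, 0.36 and 0.79 for Krt8, Krt18 and Krt19, none past the threshold. The mean of the list was 0.48, 0.43 and 0.04 in the arrays at 10 against -0.11, -0.42 and -0.30 at 1, so replicate 12 was nearer to the lower dose than the other 2 were. The median of the basal and myoepithelial markers was 0.37, and none of the 18 passed. At an unadjusted p under 0.05, 6 were higher and 0 lower, beside 6.57% and 4.35% of all genes. The contractile actin Acta2 gave 0.62 ± 0.16 (adjusted p = 0.106).

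Stat5a, which carries the prolactin signal to milk genes, rose by 0.66 ± 0.12 (adjusted p = 0.026). Its values were 0.64, 0.46 and 0.33 at 10 against -0.09, -0.23 and -0.23 at 1, and the call ended without replicates 8, 10 or 11 (0.58 to 0.73). It was the 1 of 20 genes of progesterone and prolactin signalling that passed, and 0 fell, beside 0.246% risen and 0.0563% fallen among all genes. The list's median was 0.33. Its close relative Stat5b gave 0.37 ± 0.09 (adjusted p = 0.0866), the kinase Jak2 0.40 ± 0.16 (adjusted p = 0.35) and the prolactin receptor Prlr 0.30 ± 0.26 (adjusted p = 0.804). Cxcl13, a chemokine that attracts B cells, was the lowest of the list at -1.33 ± 0.44 (adjusted p = 0.244).

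Promoter sequences are shown for genes that hold a paired Stat5 half-site, TTCNNNGAA, in the 250 bases before the start in the RefSeq promoter table (build GRCr8, both strands read, the motif being its own reverse complement). Csn1s1 and Csn2 are milk genes with the motif, and Esrrb, a nuclear receptor related to the estrogen receptors, is 1 of the 2 risen genes with it. Capitals mark the match, and each run ends 1 base before the start. Csn1s1 is at chr14:20638850-20639099 on the minus strand, Csn2 at chr14:20601574-20601823 on the plus strand and Esrrb at chr6:111738412-111738661 on the plus strand.
Csn1s1: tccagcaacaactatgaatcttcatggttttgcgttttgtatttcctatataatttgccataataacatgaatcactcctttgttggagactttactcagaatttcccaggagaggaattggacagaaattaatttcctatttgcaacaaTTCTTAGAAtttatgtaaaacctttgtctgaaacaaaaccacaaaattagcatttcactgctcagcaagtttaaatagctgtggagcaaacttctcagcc
Csn2: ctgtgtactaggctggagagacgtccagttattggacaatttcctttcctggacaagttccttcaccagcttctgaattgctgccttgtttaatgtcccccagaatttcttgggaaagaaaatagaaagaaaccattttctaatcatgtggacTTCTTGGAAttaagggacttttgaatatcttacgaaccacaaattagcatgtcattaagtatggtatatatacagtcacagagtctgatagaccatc
Esrrb: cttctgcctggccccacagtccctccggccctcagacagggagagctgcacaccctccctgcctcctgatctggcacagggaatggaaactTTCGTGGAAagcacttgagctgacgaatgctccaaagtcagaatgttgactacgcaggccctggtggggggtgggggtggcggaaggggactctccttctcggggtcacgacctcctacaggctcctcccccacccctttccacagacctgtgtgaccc

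The motif was in 7.52% of 27457 rat promoter windows of this length, in 5 of 21 milk genes with a window (Csn1s1, Csn2, Glycam1, Pip and Lao1), in 2 of the 28 risen genes with a window (7.14%, Esrrb and Gdpd1) and in 0 of the 8 fallen genes with one. The consensus palindrome of the estrogen response element, read on both strands, was in 0.0219% of the windows and in none of these 28, 8 and 21 genes. A match describes the letters and not a bound site. Esrrb rose by 0.94 ± 0.19 (adjusted p = 0.0445), with 1.21, 0.78 and 0.75 at 10 against 0.08, -0.39 and 0.22 at 1.

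Of 28 measured targets of the estrogen receptor 0 passed in limma and the median was 0.08, with 6 higher and 1 lower at an unadjusted p under 0.05, beside 6.57% and 4.35% of all genes. Greb1, a cofactor of the receptor and one of its best known targets, was at 1.19, 1.67 and 1.68 at 10 against -0.56, 0.66 and -0.18 at 1. The groups did not overlap, and the difference of 1.54 ± 0.37 missed the threshold (adjusted p = 0.0916). Pgr, the progesterone receptor, gave 0.96 ± 0.33 (adjusted p = 0.259). Areg, the amphiregulin gene, was at -0.11, 0.27 and -0.31 at 10 against -0.47, -1.74 and -0.56 at 1 (0.87 ± 0.44, adjusted p = 0.533). The groups did not overlap, and replicate 8 lay far below the others. Esr1, the receptor itself, gave -0.11 ± 0.18 (adjusted p = 0.921). Igf1, the growth factor that mediates part of the duct response to growth hormone, was the lowest target at -0.51 ± 0.19 (adjusted p = 0.325).

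In the EGF family, Ereg, which encodes the receptor ligand epiregulin, was the 1 of 15 genes that rose (0.246% of all genes did), and 0 fell. It gave 0.58 ± 0.11 (adjusted p = 0.0395), with 0.01, 0.55 and 0.31 at 10 against -0.16, -0.38 and -0.32 at 1. Replicate 10 was the lowest array at 10. The call ended without replicates 7, 8, 9, 11 or 12 (0.45 to 0.72). The receptor Egfr gave 0.52 ± 0.15 (adjusted p = 0.143). Nrg1, a ligand of the ErbB3 and ErbB4 receptors, rose on 1 of its 8 probe sets (0.83 ± 0.17, adjusted p = 0.0493), 6 of which had the same sign. On the probe set used for the list it gave 0.41 ± 0.20 (adjusted p = 0.5).

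**Figure D2:**
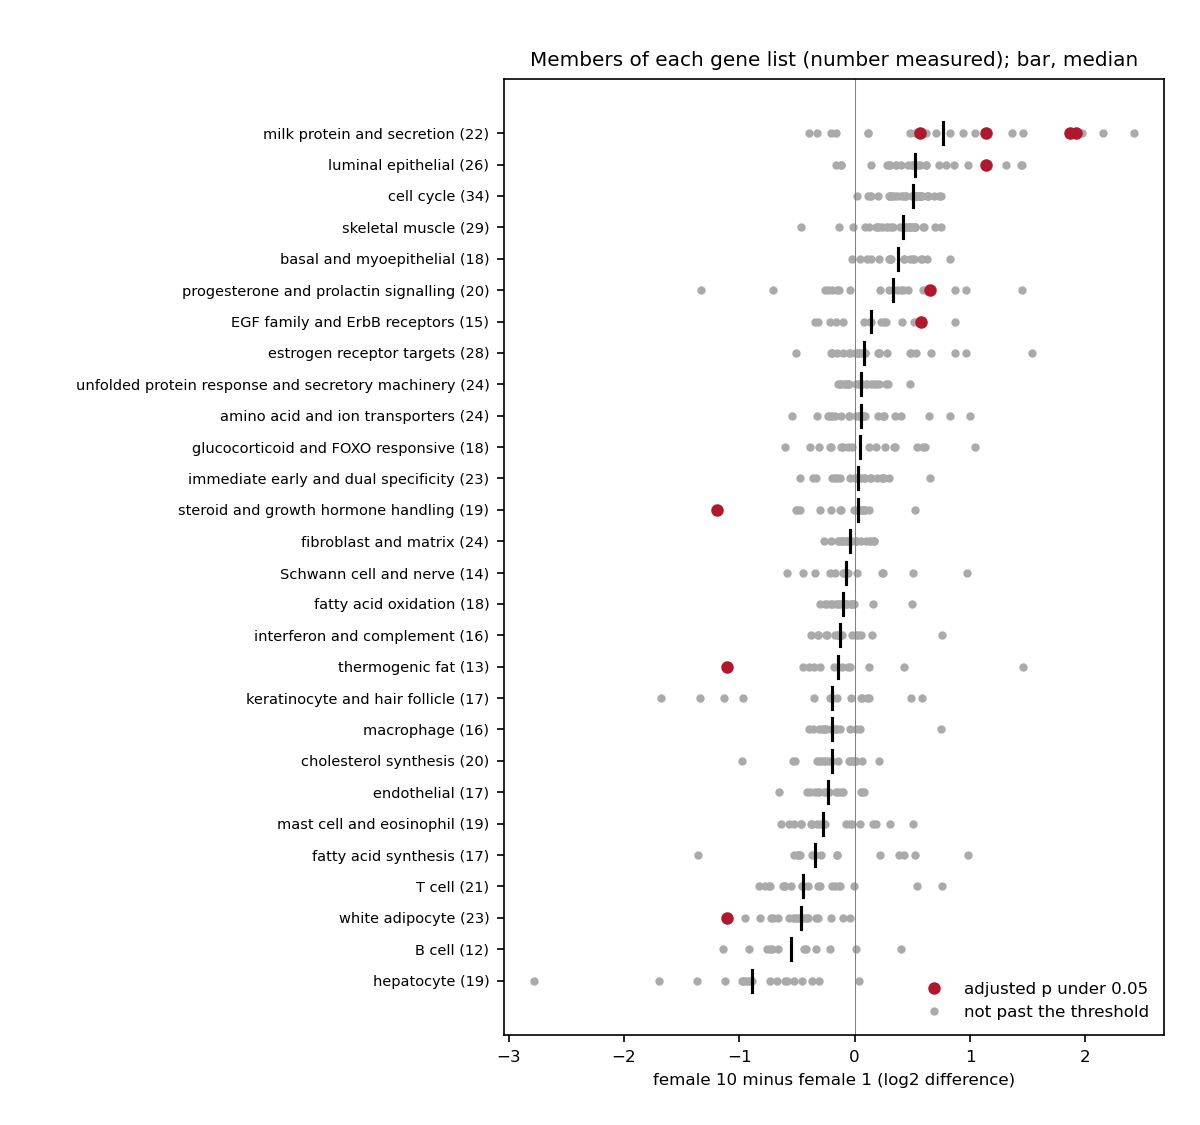
Log2 differences of females at 10 minus females at 1 µg/kg/day on the x axis for the measured members of 28 gene lists, 1 point per gene, with larger dark points for adjusted p under 0.05 and black bars for the list medians. Milk genes had the highest median (0.77), hepatocyte markers the lowest (-0.89), and 0 of the 23 white adipocyte markers lay above 0.

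Cell cycle genes lay above 0 without passing the threshold. All 34 had a positive difference (51.4% of all genes), 23 of them at an unadjusted p under 0.05 (6.57% of all genes were higher at that limit). The median was 0.51, and 0 passed the adjusted threshold in limma. The means of the list were 0.74, 0.06 and -0.04 in the arrays at 10 against 0.06, -0.26 and -0.39 at 1, so replicate 10 stood apart and replicate 12 lay below replicate 7. Without replicate 10 the median was 0.21. Nusap1, a spindle protein, gave 0.73 ± 0.23 (adjusted p = 0.208) and Mki67, the proliferation marker Ki-67, 0.69 ± 0.22 (adjusted p = 0.23). Incenp, a scaffold of the chromosomal passenger complex that the list did not include, rose by 0.67 ± 0.11 (adjusted p = 0.0107), and its 3 probe sets had the same sign.

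Further rises are named here after their values were seen. Slc30a4, a zinc transporter whose loss in mice gives zinc-poor milk, rose by 0.83 ± 0.16, and its 2 probe sets had the same sign. Lrp6, a Wnt co-receptor, rose by 0.71 ± 0.14 and Bmp8a, a bone morphogenetic protein, by 0.60 ± 0.11. Rph3al and Syt12, which act in exocytosis, rose by 0.95 and 0.74, Cgnl1 of cell junctions by 0.80 and the microvillus protein Vil1 by 0.50. Retreg1, a receptor for autophagy of the endoplasmic reticulum, rose by 0.96 on 1 probe set, while its other probe set gave -0.10.

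White adipocyte markers were lower at 10, with a median of -0.47 and all 23 below 0 (48.6% of all genes). The median over all genes was 0.01, and 14 of the 23 were lower at an unadjusted p under 0.05, beside 4.35% of all genes. Adrb3, the beta-3 adrenergic receptor that triggers lipolysis, was the 1 marker that fell and 0 rose, where 0.0563% of all genes fell. It had -1.13, -0.93 and -0.85 at 10 against 0.10, 0.37 and -0.07 at 1 and fell by 1.11 ± 0.20 on the log2 scale (2.15-fold lower, 95% confidence interval 1.60 to 2.90, adjusted p = 0.0298). The call ended without replicates 7, 8, 10 or 11 (-1.21 to -0.99), and 6 markers fell without replicate 9. Agpat2, an acyltransferase of triglyceride synthesis, gave -0.95 ± 0.24 (adjusted p = 0.106), the lipid droplet protein Plin4 -0.82 ± 0.20 (adjusted p = 0.102) and Pparg, the master regulator of adipocytes, -0.66 ± 0.18 (adjusted p = 0.135). The means of the list were -0.45, -0.53 and -0.33 in the arrays at 10 against 0.12, 0.42 and -0.32 at 1, and replicate 9 at 1 was level with replicate 12 at 10 and far below the other 2 arrays at 1.

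Other genes that fell were few. Igfbp3, which binds insulin-like growth factors in serum and tissue, fell on both probe sets. The first was at -1.54, -0.45 and -0.64 at 10 against 0.37, 0.84 and 0.17 at 1 (-1.34 ± 0.24, adjusted p = 0.026), and the second gave -1.19 ± 0.24 (adjusted p = 0.0445). Replicate 10 was the lowest array on both, and the calls ended without replicates 7, 8 or 10 (-1.55 to -1.01 on the first). Igfbp3 was the 1 of 19 genes of steroid and growth hormone handling that fell (0.0563% of all genes did), and 0 rose. Kcnip1, a subunit of voltage-gated potassium channels, was at -1.06, -0.96 and -1.09 at 10 against 0.02, 0.31 and -0.18 at 1 (-1.09 ± 0.21, adjusted p = 0.0381). Its arrays at 10 were close together. Col6a6, a collagen VI chain, fell by 0.99 ± 0.20 on the log2 scale (adjusted p = 0.0426), and Mcam, an adhesion protein of vessel walls, by 0.55 ± 0.11 (adjusted p = 0.0486). Plaat3, a phospholipase abundant in adipocytes, fell by 0.46 ± 0.09 and the cap-binding protein Eif4e3 by 0.45 ± 0.09, as did C1h19orf12 by 0.56 ± 0.11.

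For 3 of the fallen genes the probe sets of the gene disagreed in sign. Kcnip1 fell on 1 probe set, and its other 2 gave -0.63 and 0.12 (adjusted p = 0.281 and 0.815). Gosr1, a Golgi SNARE protein, fell on 1 probe set (-1.02 ± 0.21, adjusted p = 0.0464), and its other 2 gave 0.02 and 0.10. Nipbl, the loader of cohesin on chromosomes, fell on 1 (-0.77 ± 0.14, adjusted p = 0.0298), and its other 3 gave 0.26, -0.05 and 0.46. Of the 26 probe sets that fell, 14 had no single gene in the annotation, as did 16 of the 57 that rose, beside 32.9% of all probe sets tested.

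Alb, which encodes serum albumin made by hepatocytes, had the largest fall. It was at -3.37, -2.59 and -2.95 at 10 against 0.98, -0.71 and 0.03 at 1 (-3.07 ± 0.64, adjusted p = 0.0493). The other probe set of the gene gave -2.78 ± 0.68 (adjusted p = 0.0984), and the call ended whichever of the 6 arrays was left out (-3.48 to -2.63). Of the 19 hepatocyte markers, 18 were below 0 (48.6% of all genes), and their median was -0.89. Alb is 1 of the 19, represented there by its other probe set, and 0 of the list passed. At an unadjusted p under 0.05, 2 were lower, beside 4.35% of all genes. The mean of the list at 1 was highest in replicate 7, and the part of that array in the fall of Alb was not tested beyond leaving it out. Without replicate 7 the list's median was -0.49 and Alb was at -2.63. Orm1, also a liver plasma protein, lay in the opposite direction to Alb on all 3 arrays at 10.

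At an unadjusted p under 0.05, 6.57% of all genes were higher and 4.35% lower, the shares to set beside the unadjusted counts that follow. Of all genes 0.246% rose and 0.0563% fell. Of 20 cholesterol synthesis genes 0 passed in limma, 8 were lower at an unadjusted p under 0.05, and their median was -0.20. Insig1, the sterol-regulated brake on the pathway, gave -0.98 ± 0.26 (adjusted p = 0.115). Of 17 fatty acid synthesis genes 0 passed (4 higher and 2 lower unadjusted), with a median of -0.35, the desaturases Scd2 and Fads2 lying on opposite sides at -0.48 ± 0.13 and 0.99 ± 0.22 (adjusted p = 0.114 and 0.075). The median of 19 mast cell and eosinophil markers was -0.27, again with 0 called (1 higher and 4 lower unadjusted), and Hdc, which makes histamine, gave -0.64 ± 0.16 (adjusted p = 0.106). The T cell, B cell and skeletal muscle lists (21, 12 and 29 genes) gave medians of -0.45, -0.55 and 0.42, also with 0 called, and unadjusted 2 T cell markers were higher and 1 muscle marker lower. The signs of these medians depended on single arrays. Without replicate 10 the T and B cell medians were 0.27 and 0.09 and the muscle median -0.05, and without replicate 7 the muscle median was -0.44. For endothelial and fibroblast markers the medians were -0.23 and -0.04, with 0 called and 6 and 1 lower unadjusted.

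Values at the other female doses are given beside the difference. They share the arrays at 10 or at 1 with the comparison above, so the values are set side by side and are not independent. For the 57 risen probe sets the median difference from 0 µg/kg/day was 0.10 at 0.1, 0.05 at 1 and 1.09 at 10. For the 26 that fell it was -0.14, -0.13 and -0.97. Choosing the sets by their difference between 10 and 1 in itself pulls the values at those 2 doses apart. These medians therefore do not show the shape of the dose response. Zbtb40 had -0.52, -0.03 and -0.10 at 0 and -0.47, 0.03 and 0.26 at 0.1. All 9 arrays at the 3 lower doses lay below the 3 at 10 for 54 of the 57 risen probe sets. Those of Zbtb40, Extl1 and Stat5a were among them. For 19 of the 26 that fell, all 9 lay above the 3 at 10. In both sets the 3 arrays at 1 already lay on that side, since those groups did not overlap. The share over all probe sets was not counted, so 54 and 19 have no reference to be read against. Wap, which did not pass at 10 against 1, also had all 9 below the 3 at 10. It had -1.68, -1.85 and -1.15 at 0 and -2.65, -1.77 and 0.22 at 0.1, so its arrays at 1 lay above those at 0. That difference of 1 from 0 was 1.88 and did not pass (adjusted p = 0.9998 in limma). Adrb3 had 1.07, 0.73 and 0.82 at 0, and its values at 1 lay between those at 0 and at 10. Its difference of 1 from 0 was -0.74 and did not pass (adjusted p = 0.9998 in limma). At 0.1 Adrb3 had 0.03, 0.06 and -0.79, with a mean of -0.23 below that of 0.14 at 1, so its means did not fall stepwise with dose. The white adipocyte list had means of 0.54, 0.29 and 0.29 in the arrays at 0 and 0.02, -0.35 and -0.59 at 0.1.

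**Figure D3:**
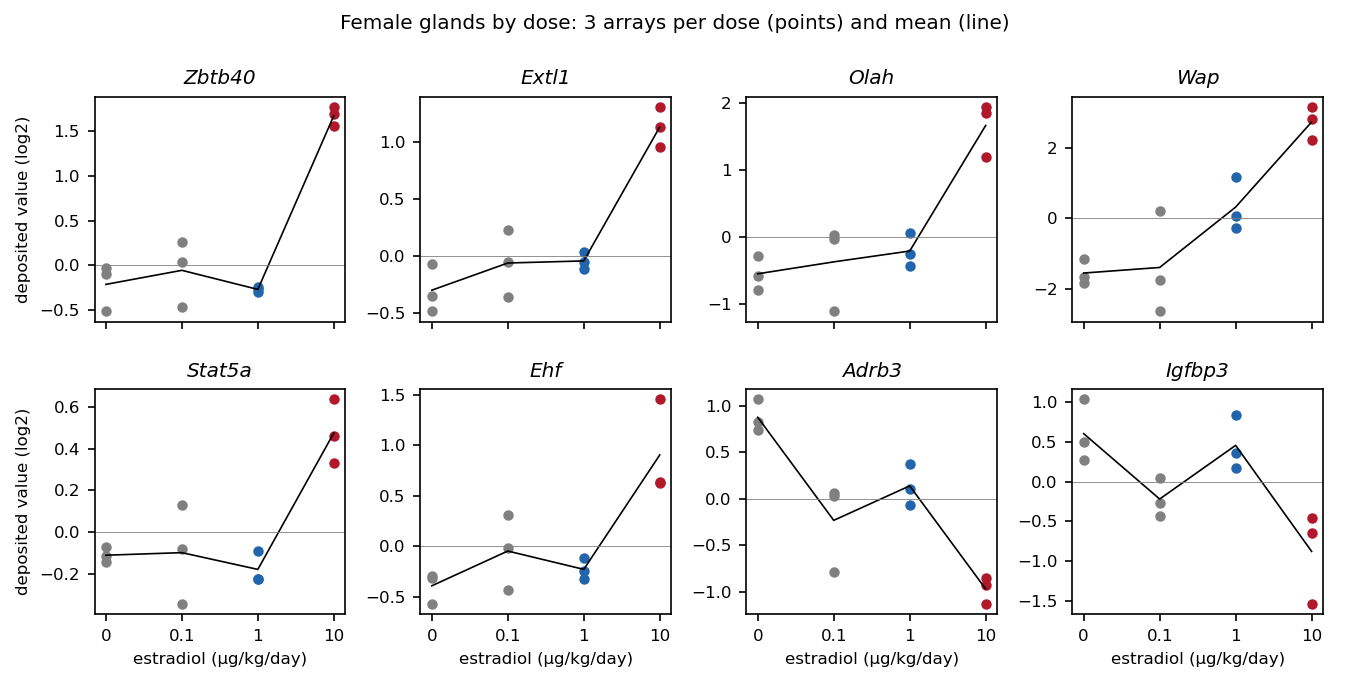
Deposited log2 values on the y axis against estradiol dose in females on the x axis (0, 0.1, 1 and 10 µg/kg/day, evenly spaced categories) for 8 genes, with points for the 3 arrays of each dose and a line through the means. Zbtb40, Extl1, Olah, Wap, Stat5a and Ehf had all arrays at 10 above those at the lower doses. Wap was higher at 1 than at 0 and Adrb3 lower, neither past the threshold, and Adrb3 was lowest at 10.

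The same step was measured in males on 6 other arrays. In males 120 probe sets passed at 10 against 1 (0.387%). Of the 57 that rose in females, 43 were also above 0 in males, beside 51.5% of all probe sets, 22 did not overlap between the doses in that direction (9.25% of all), 22 were higher at an unadjusted p under 0.05 (3.98%), and 10 rose in males, beside 0.177%. Of the 26 that fell, 17 were below 0 in males, beside 48.5%, 14 did not overlap (9.72%), 12 were lower at an unadjusted p under 0.05 (5.43%), and 4 fell, beside 0.209%. The risen set had a median of 0.99 in females and 0.27 in males, and the fallen set -0.92 and -0.20. Both sets were chosen by passing in females, which favours large female values. These medians therefore do not compare the size of the response between the sexes. Genes that rose in both sexes were Zbtb40, Clca4l, Msln, Extl1, Asic2 and Esrrb, and genes that fell in both were Adrb3, Kcnip1 and Col6a6. Zbtb40 in males was at 2.69, 3.32 and 2.47 at 10 against -0.01, -0.13 and 0.04 at 1 (2.86 ± 0.19, adjusted p = 1.43e-07). Extl1 in males gave 1.27 ± 0.14 on the first probe set, against 1.17 in females.

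The difference between the female and the male step passed the threshold for 0 probe sets in limma (0%, smallest adjusted p = 0.0623), while 2447 had an unadjusted p under 0.05 (7.88%) and 22 passed with array weights. So no gene is shown here to respond in females alone. Of the smallest p-values, Cgnl1 had 0.80 ± 0.14 in females and -0.35 ± 0.14 in males (difference 1.15 ± 0.19, adjusted p = 0.0623). Acta2 had 0.62 ± 0.16 in females and -0.72 ± 0.16 in males (difference 1.34 ± 0.22, adjusted p = 0.0623). Lpo rose in females and gave -0.32 ± 0.19 in males (difference 1.46 ± 0.27, adjusted p = 0.0967). In the other direction Gosr1 and Nipbl fell in females and gave 0.81 ± 0.21 and 0.38 ± 0.14 in males (adjusted p of the difference 0.0623 and 0.0719). Angpt1, the angiopoietin of vessel stability, gave 0.53 ± 0.15 in females and -0.65 ± 0.15 in males (adjusted p of the difference 0.0841).

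Both Areg and Greb1 passed the threshold in males over this step. Areg rose by 2.17 ± 0.44 in males (adjusted p = 0.0415) beside 0.87 ± 0.44 in females, with a difference of the steps of -1.30 ± 0.63 (adjusted p = 0.639). Greb1 rose by 2.0 ± 0.37 in males (adjusted p = 0.0217) beside 1.54 ± 0.37 in females (adjusted p of the difference 0.906). Milk genes had a median of -0.19 in males beside 0.77 in females, and luminal markers -0.28 beside 0.52, and the difference of the list medians was not tested. White adipocyte markers had medians of -0.52 in males and -0.47 in females.

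**Figure D4:**
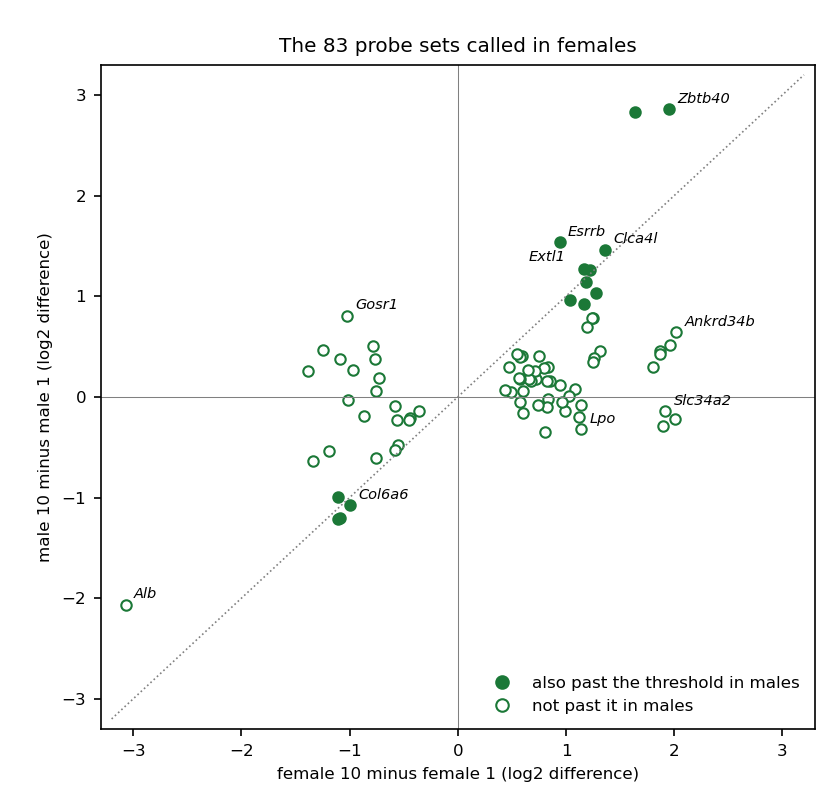
Log2 differences of 10 minus 1 µg/kg/day for the 83 probe sets that passed in females, with females on the x axis and males on the y axis, filled circles for probe sets also past the threshold in males, open circles for the rest and a dotted line of equality. Zbtb40 and Extl1 lay near or above the line, while Slc34a2 and Lpo lay near or below 0 in males.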

How the data were processed

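Affymetrix arrays of 24 rat mammary gland samples were used, in 8 groups of 3 by sex and dose taken from the sample titles. The deposited table holds signed log2 values by assumption: no source used here states the log base or how values were summarized, normalized and centred, and the submitters' processing notes name GCOS, the Affymetrix operating software, without a role or version. Folds assume log2. The number of arrays limits the precision, and depth over background cannot be judged from centred values.

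Of the probe sets, 57 controls were left out and 31042 tested with lmFit and eBayes of limma 3.58.1 under R 4.3.3 (8 group means, 16 residual degrees of freedom), adjusted by Benjamini-Hochberg over all of them, with confidence intervals at 95%. Array medians lay between -0.02 and 0.01, 0 pairs of arrays were identical, and the fit was tested on simulated data. The simulated noise was independent and of equal spread on all arrays. That test therefore cannot speak to arrays that differ in tissue content or spread. By the platform annotation, 20826 probe sets name 1 gene, 436 several and 9780 none. Each list gene is represented by its most variable probe set among the male arrays. Named genes were the 15 largest rises and all genes that fell with non-overlapping groups, up to 4 risen or fallen members of each list or else the 2 with the smallest p, the smallest p-values of the sex difference, and 9 genes always named. Other genes were named after their values were seen. The comparison, lists and tests were chosen with earlier results of these data known.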

Additional observations from a re-analysis of the deposited data

How the results depend on the processing

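The 83 probe sets kept their direction under each alternative in which they were tested (76 of 76 after the filter on flat probe sets). As their groups did not overlap, only the fits with covariates and quantile normalization could have turned it. In the other alternatives the direction was fixed in advance. The number past the threshold moved widely around 57 risen, 26 fallen and 0 for the sex difference. Risen and fallen counts were 1 and 0 with the 6 arrays alone, 2 and 1 with the 12 female arrays, 27 and 11 without the 4 arrays with a hepatocyte mean over 1, 100 and 66 with array weights, 165 and 92 with tissue marker covariates, and 127 and 42 with quantile normalization. Alternatives added after seeing the data gave 166 and 62 without the 2 arrays of widest spread, and 9 and 13 without the 5 arrays with a hepatocyte mean over 0.5. At an unadjusted p under 0.05 and a difference of at least 1, 96 were higher. Leaving out 1 array gave 8 to 103 risen and 1 to 76 fallen. For the sex difference, counts were 1 with the 12 arrays at 10 and 1, 22 with array weights, 43 with tissue covariates, 7 and 14 without the arrays over the 2 hepatocyte limits, 1 with quantile normalization, 6 with the filter, 190 at the unadjusted rule and 0 to 14 with 1 array left out. The causes were not tested. Values that turned their sign were Sprr1a without female replicate 7 at 1 (0.077, the same without the arrays over the lower hepatocyte limit, and -2.71 to 0.077 with 1 array left out), Cr2 without replicate 10 (-1.93 to 0.099) and Esr1 without replicate 12 (-0.25 to 0.012). No paired analysis was possible for the female step because arrays at 10 and at 1 share no replicate number. For the sex difference, the deviations of same-numbered male and female arrays correlated at 0.45 and 0.56 for replicates 10 and 11 and below 0 for replicates 7, 8, 9 and 12 (lowest -0.48), so the numbers were not taken as pairs, and a replicate block gave 0.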

Other observations

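The falls are given here apart for probe sets with and without a gene name, a split chosen after the values were seen and not tested. Of the 12 fallen probe sets with 1 gene, 10 were also below 0 in males, with a male median of -0.51. Of the 14 without a single gene, 7 were below 0 in males, with a male median of 0.01. In 9 of those 14, and in 2 of the 12, replicate 7 was the lowest of the 3 arrays at 1.

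Extl1 lies beside Slc30a2 in the rat reference (GRCr8), a zinc transporter that loads secretory vesicles of the lactating gland, and this neighbour was looked up after the value of Extl1 was seen. Its 2 probe sets gave 0.55 ± 0.19 and 0.61 ± 0.16 in females at 10 against 1 (adjusted p = 0.272 and 0.129). Both had their high value on 1 array, with 1.10 and 1.00 in replicate 10 at 10. Stmn1, the nearest measured gene on the other side of Extl1, gave 0.47 ± 0.18 (adjusted p = 0.339 in limma).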
